A study of Homo sapiens with 6 samples.

Results

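The ATP-binding cassette (ABC) transporters and the P-type ATPases of DU145 cells were compared between cells that overexpressed transcription factor EB (TFEB) and vector control cells, with ABCA2 set among its family. Members were the protein-coding genes of the deposited table named as ABCA to ABCG genes or as ATP1, ATP2, ATP7 to ATP11 and ATP13 genes. The rule found 40 of 10542 listed genes, of which 21 were ABC genes and 19 were P-type ATPase genes, including the ATP1B genes for the beta subunit of the sodium pump. GENCODE 29 annotates 83 protein-coding genes that match the same names, and the other 43, among them ABCB1, ABCG2, ABCA1, ATP2A2 and ATP7B, were not analysed here.

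DU145 cells are a long-established line grown from a human prostate carcinoma. In this series DU145-TFEB cells had received a lentivirus for TFEB overexpression and DU145-vector cells a blank control lentivirus, and mRNA of 3 libraries per group was sequenced. The promoter of the transgene, and whether each line was a pool or a single clone, are not given in the sources used here. Nothing in the labels says that the 3 libraries of a group came from separate cultures, so p-values measure only the spread between these libraries, which may be technical. Reads assigned to listed genes numbered 13999961, 16511477 and 14146832 in DU145-TFEB replicates 1 to 3 and 14776019, 14603929 and 14217130 in the DU145-vector replicates. Values are normalized read counts, in which the authors had divided the reads of a gene by 1 size factor per library. The deposited table lists genes with a deposited adjusted p-value below 0.05 only, its highest being 0.0499, so it was selected on these same libraries. A call on a member therefore carries little information beyond its direction and size.

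ABC proteins couple the binding and hydrolysis of ATP at paired nucleotide-binding domains to the movement of lipids, sterols, peptides, conjugates and drugs across membranes, and the ABCE and ABCF proteins lack membrane domains and act on ribosomes instead. P-type ATPases form a phosphorylated intermediate on an aspartate residue in each transport cycle, and pump sodium, potassium, calcium or copper ions, flip phospholipids, or move polyamines. TFEB is a helix-loop-helix factor of the lysosome that binds E-box-like sequences near the start of lysosomal genes, and ABCA2 is an ABC transporter of the endolysosomal membrane linked to sterol and sphingolipid handling.

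TFEB itself was measured at 6325, 6301 and 6036 normalized counts in the DU145-TFEB libraries and at 127, 124 and 125 in the DU145-vector libraries. The labels and the targeted gene therefore matched in all 6 libraries. Its log2 fold change was 5.62 (SE 0.08, adjusted p = 3.2e-10 by limma). Of 7 epithelial and cell line markers, KRT8, KRT18 and KRT19 were analysed, at group means of 26868 and 16978 counts for KRT8 in DU145-vector and DU145-TFEB cells. All 3 keratins were lower in DU145-TFEB cells, as were 52.4% of the listed genes. The log2 fold changes were -0.68 for KRT8, -0.78 for KRT18 and -0.38 for KRT19. The libraries of KRT19 overlapped between the groups, DU145-TFEB replicate 2 at 1884 counts lying above DU145-vector replicate 2 at 1846. With the trend against GC content and length removed, as described below, the keratins were lower still, at -1.53, -1.63 and -1.43. None of 6 markers of other cell types was among the listed genes. In bulk RNA, a change in the share of cells that express a gene and a change in RNA per cell cannot be told apart.

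The family split by direction. Of the 40 members 21 were higher and 19 were lower in DU145-TFEB cells at an adjusted p below 0.05 (limma on log2(normalized count + 1), Benjamini-Hochberg adjustment over all 10542 listed genes), while 47.6% of all listed genes were higher and 52.4% were lower. Among the ABC genes 14 were higher and 7 lower, and among the P-type ATPase genes 7 were higher and 12 lower. The median log2 fold change was 0.52 over the ABC genes, -0.34 over the P-type ATPase genes, 0.34 over all members and -0.36 over all listed genes. The lowest and highest libraries of the groups did not overlap for any of the 40 members, as for 99.3% of the listed genes.

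With the study's cutoff for a differentially expressed gene (DEG), an absolute log2 fold change above 1.5 beside the adjusted p, 0 members were higher and 4 were lower, among them ABCD3, ATP11B and ATP13A3. Over all listed genes, 2.54% were higher DEGs and 16.5% were lower DEGs. With DESeq2 2 lower DEGs were left, since ABCD3 and ATP11B were at -1.43 and -1.45 there, and without DU145-TFEB replicate 2 the count was also 2. The 3 members with the highest log2 fold changes were ATP13A1 at 1.21, ABCG1 at 1.11 and ABCA2 at 1.02.

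**Figure D1:**
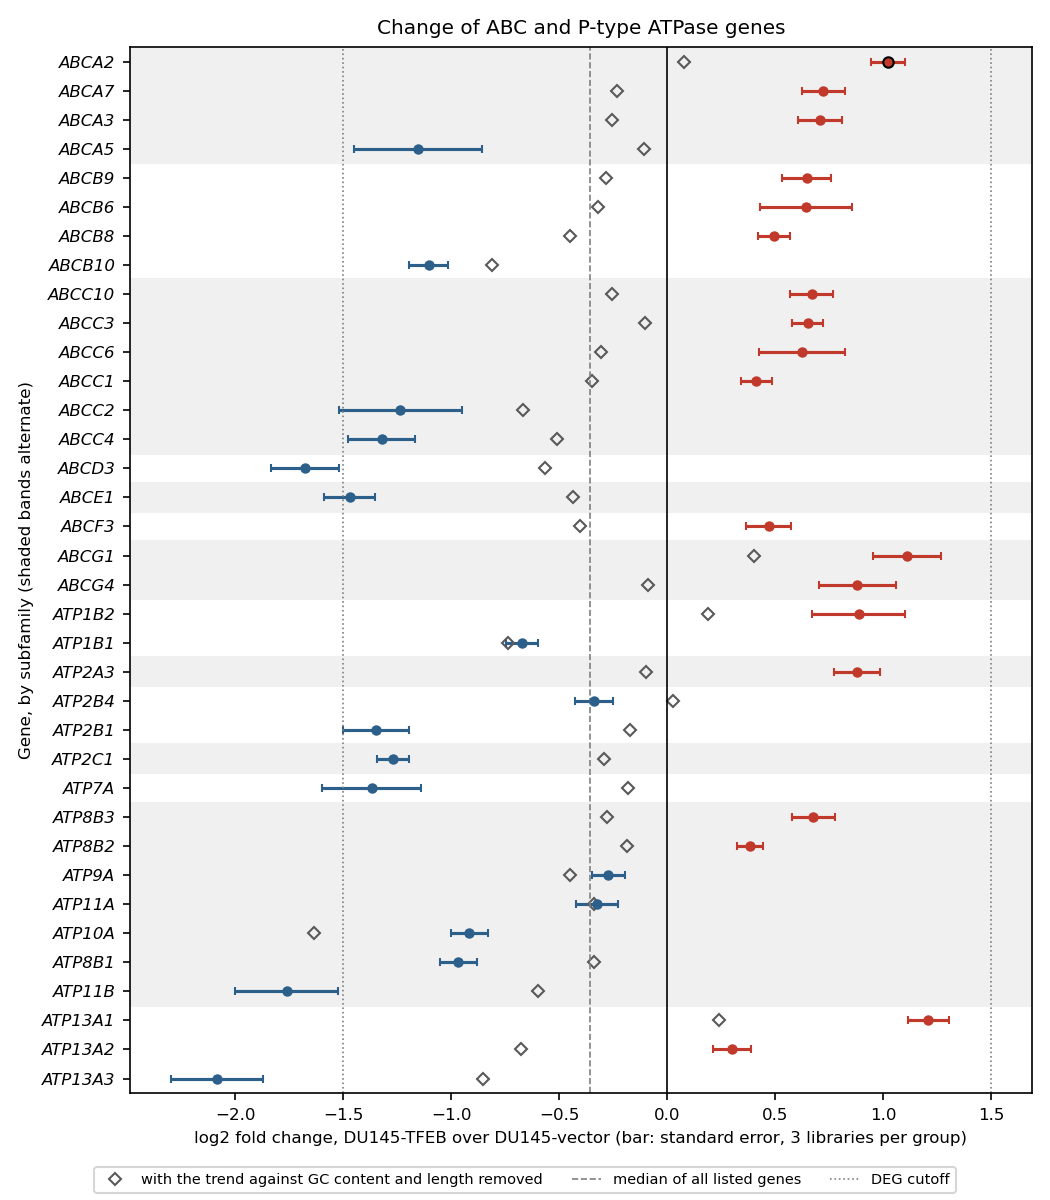
Log2 fold change of 36 of the 40 genes (x axis, DU145-TFEB over DU145-vector) by subfamily (y axis), with the standard error from limma as the bar and 3 libraries per group; red marks higher and blue lower, ABCA2 has a black rim, diamonds give the value with the trend against GC content and length removed, and lines mark 0, the median of all listed genes and the DEG cutoff. Circles spread from -2.08 for ATP13A3 to 1.21 for ATP13A1, and of the genes on the right ABCG1 and ATP13A1 were called higher on the diamonds, though not with the trend against GC content alone removed.

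The direction of the members followed the GC content of their transcripts. The 21 higher members had a median GC content of 59.3% and the 19 lower members one of 42.0%. At a GC content of 50% or more, 21 members were higher and 2, ATP10A and ATP11A, were lower, and under 50% all 17 members were lower. The listed genes as a whole did the same, with 4179 higher and 388 lower of 4568 at 50% or more, and 833 higher and 5134 lower of 5969 under 50%. Spearman's rho between log2 fold change and GC content was 0.84 over the 40 members and 0.74 over 10537 listed genes, which share the 6 libraries. The part of GC content in the members' changes was not tested, and library preparation and TFEB cannot be told apart where all libraries of a group shift together.

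**Figure D2:**
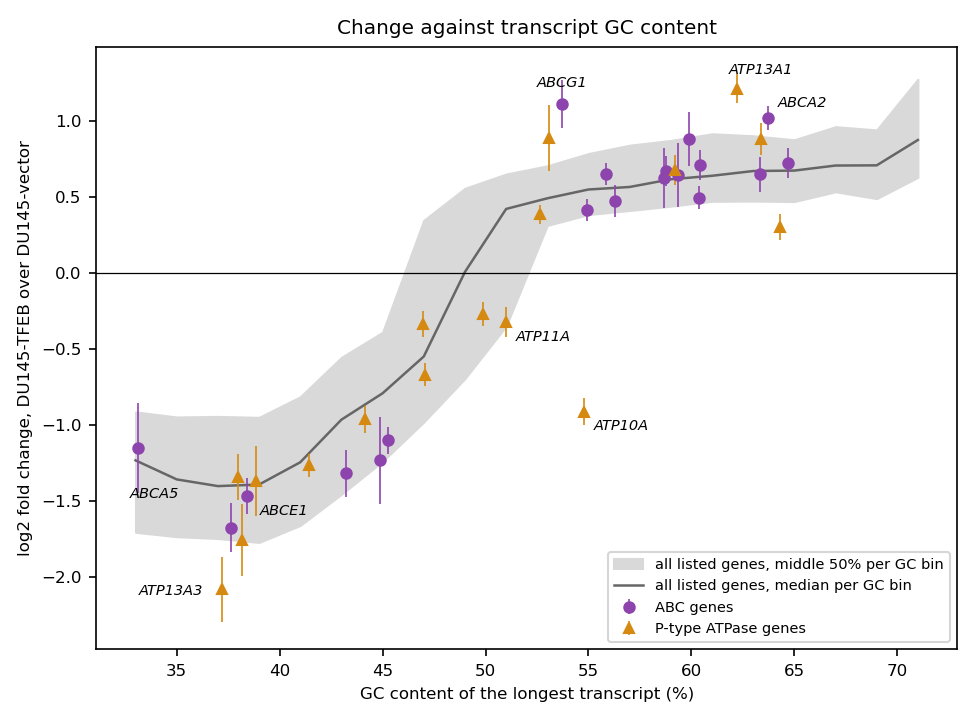
Log2 fold change (y axis, DU145-TFEB over DU145-vector, bars are standard errors from limma) against the GC content of the longest transcript in percent (x axis) for 19 ABC genes (circles) and 17 P-type ATPase genes (triangles), over the median and the middle 50% of all listed genes in bins of GC content. Members under 50% lay below 0, members above it lay above 0 apart from ATP10A and ATP11A, and ABCG1, ATP13A1, ABCA2 and ATP1B2 lay above the grey band.

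To set each member against listed genes of like GC content and length, the trend against both was removed from every library. Then 2 members were called higher, ABCG1 with a log2 fold change of 0.40 and ATP13A1 with 0.24, 25 were called lower and 13 were not called. Both higher calls ended when the trend against GC content alone was removed, at 0.35 for ABCG1 (adjusted p = 0.058 by limma) and 0.19 for ATP13A1 (adjusted p = 0.087). Over the listed genes 14% were called higher and 54.3% lower with both trends removed, with a median of -0.31, close to the members' median of -0.30. Of the 40 log2 fold changes 18 changed sign, a count for which no share over the listed genes is given. The medians of the ABC and the P-type ATPase genes then lay side by side at -0.31 and -0.29, with 1 higher and 13 lower of 21 ABC genes and 1 higher and 12 lower of 19 P-type ATPase genes. Values on this scale are given with the genes below as values with the trend removed. Calls on it are against 0 and not against the median of the listed genes, -0.31, so a gene called lower can lie above that median.

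Among the ABCA genes, full-length lipid transporters, ABCA2, ABCA3 and ABCA7 rose and ABCA5 fell. ABCA2 (ENSG00000107331, chr9:137007227-137028922 on the minus strand of GRCh38) was measured at 5816, 5426 and 5473 normalized counts in DU145-TFEB cells and at 2970, 2497 and 2783 in DU145-vector cells. The lowest DU145-TFEB library thus lay well above the highest DU145-vector library, and the means were 5572 ± 213 and 2750 ± 238 (SD, n = 3 libraries each). The fold change was 2.03, or 1.02 on the log2 scale (SE 0.08, adjusted p = 5.4e-06 by limma). Per kilobase of gene length ABCA2 had the highest level of its subfamily and the fifth highest of the 40 members, at 361 normalized counts per kilobase over both groups. The GC content of ABCA2 was 63.7%. Without the GC and length trend the change of ABCA2 was 0.08 on the log2 scale (adjusted p = 0.30 by limma), or 0.39 above the median of the listed genes there.

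ABCA7, a phospholipid transporter, and ABCA3, the surfactant lipid transporter of lamellar bodies, rose by 0.72 and 0.71 on the log2 scale. ABCA5, a lysosomal member, was measured at 71.5, 37.3 and 94.5 counts in DU145-TFEB cells and at 133, 152 and 141 in DU145-vector cells. Its DU145-TFEB libraries spread widely, and the log2 fold change of -1.15 had an SE of 0.29 (adjusted p = 0.0040 by limma). ABCA5 had the lowest GC content of the members, 33.1%, and with the trend removed its value was -0.11 (adjusted p = 0.62). On the same scale the values of ABCA3 and ABCA7 were -0.26 and -0.23, both called lower but above the median of the listed genes there, -0.31.

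The 250 bases before the first annotated start of ABCA2 in RefSeq (GRCh38.p14, minus strand, chr9:137028923-137029172) are shown because TFEB is known to bind E-boxes, of which CACGTG is the form it prefers. The general E-box CANNTG is in capitals, with N for any base, and its matches begin 206 and 21 bases before the start.
ABCA2: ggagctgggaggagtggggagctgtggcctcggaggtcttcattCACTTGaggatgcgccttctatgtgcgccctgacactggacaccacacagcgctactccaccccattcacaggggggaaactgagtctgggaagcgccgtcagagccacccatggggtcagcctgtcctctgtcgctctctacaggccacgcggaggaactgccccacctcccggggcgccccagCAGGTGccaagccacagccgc
Neither match is CACGTG. A second annotated start of ABCA2 has its own window of 250 bases before and 50 after it (chr9:137028188-137028487), with a GC content of 86.7% and 0 matches to CANNTG. These letters say only what these windows hold.

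Promoter windows of the same length were given for 30 of the 40 members, and the others were not searched. CACGTG was found in 5 of them, ABCB6, ABCB9, ABCC10, ATP2B1 and ATP7A, or 16.7%, against 12.6% of 7619 listed genes and 8.77% of all 27305 genes with a window. CACGTG reads the same on both strands. The longer TCACGTG, searched on both strands and always overlapping a CACGTG, was found in 4 of the 5, all but ABCB9, or 13.3% of the members against 7.60% of the listed genes. The matches with 12 bases on either side are shown 5′ to 3′ in the direction of the gene, with CACGTG in capitals, because these are the members with the letters known for TFEB.
ABCB6: tcccgccctgggCACGTGaccaagccggct
ABCB9: gcctcggaagcgCACGTGcagcccatagcg
ABCC10: gagcgaatactcCACGTGagaggttataaa
ATP2B1: cgcggatcgcgtCACGTGaccgcgctcagc
ATP7A: cgcgttccttttCACGTGaccagtcgctct
ABCB6 (chr2:219219097-219219126), ABCB9 (chr12:122975324-122975353) and ABCC10 (chr6:43427368-43427397) were higher in DU145-TFEB cells, at log2 fold changes of 0.64, 0.65 and 0.67. ATP2B1 (chr12:89709347-89709376) and ATP7A (chrX:77910543-77910572) were lower, at -1.35 and -1.37. Members with the letters thus lay in both directions before the GC and length trend was removed. GC content was 59.3%, 63.3% and 58.7% for ABCB6, ABCB9 and ABCC10, and 38.0% and 38.9% for ATP2B1 and ATP7A. With the trend removed all were negative, in the same order at -0.32, -0.28, -0.26, -0.17 and -0.18. ABCB9 and ABCC10 were called lower there and the others were not called. The median of the listed genes there was -0.31. A link of the letters to these changes was not tested.

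**Figure D3:**
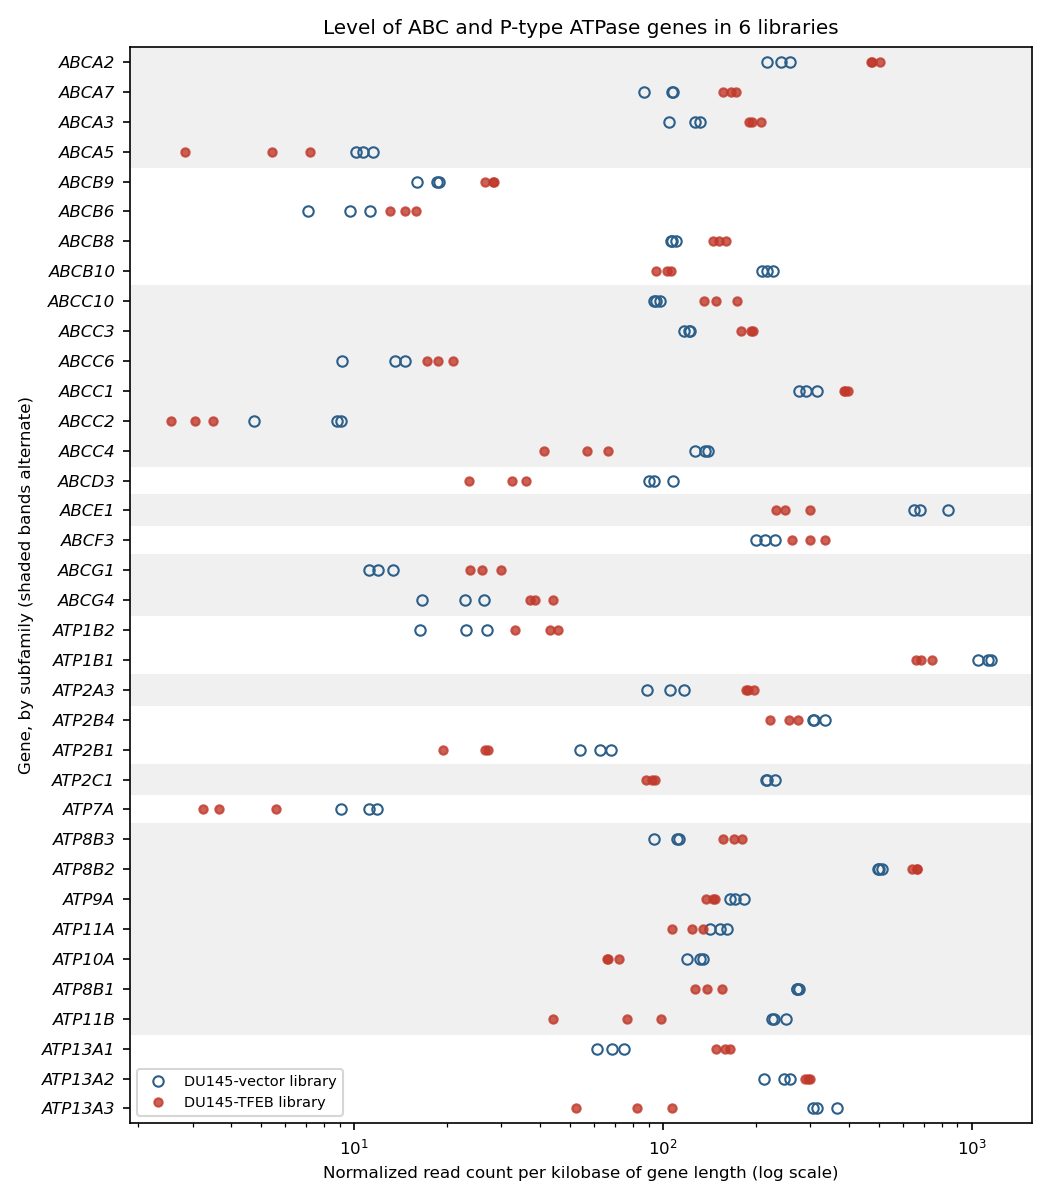
Normalized read count per kilobase of gene length (x axis, log scale) of 36 of the genes (y axis, by subfamily) in the 3 DU145-TFEB libraries (filled) and the 3 DU145-vector libraries (open). The groups do not overlap for any gene, ATP1B1 has the highest level of those shown, and the DU145-TFEB libraries of ATP11B, ATP13A3 and ABCA5 spread more than their DU145-vector libraries.

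Both ABCG genes, short sterol exporters that work as dimers, rose, beside 47.6% of the listed genes. ABCG1, which passes cholesterol to lipoproteins, was measured at 183, 159 and 145 counts in DU145-TFEB cells and at 68.6, 73.2 and 82.0 in DU145-vector cells. Its log2 fold change of 1.11 (SE 0.16, adjusted p = 0.00012 by limma) was the second highest of the members, and the value of 0.40 with the GC and length trend removed was the highest (adjusted p = 0.033), though not called with the GC trend alone removed. ABCG4, its close relative, had the higher level per kilobase of the pair and was measured at 276, 241 and 234 against 143, 104 and 165 counts. It rose by 0.88 on the log2 scale, and its value was -0.09 (adjusted p = 0.61 by limma) with the trend removed. The libraries did not overlap for either gene.

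Regulators of sterol efflux were higher as well. Of 10 such genes 9 were analysed, and 9 were higher and 0 lower, beside 47.6% and 52.4% of the listed genes. Their median was 0.59 on the log2 scale, against -0.36 over all listed genes. SREBF1, the sterol and lipid synthesis regulator, rose most, by 0.90, and NPC2, the lysosomal cholesterol carrier, rose least, by 0.38. The oxysterol receptors NR1H2 and NR1H3, which are known to induce ABCG1, rose by 0.70 and 0.59, and their partner RXRB by 0.69. These genes were also mostly rich in GC, and 4179 of 4568 listed genes with a GC content of 50% or more were higher. With the trend removed 1 of the 9, NPC2 at 0.64, was called higher and 6 were called lower, beside 14% and 54.3% of the listed genes. SREBF1 and NR1H3 were then not called, at -0.08 and -0.24. NR1H2 and RXRB were called lower, at -0.28 and -0.25, though above the median of the listed genes there, -0.31.

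The ABCB genes described here sit in mitochondria, lysosomes and endosomes, and ABCB6, ABCB8 and ABCB9 rose and ABCB10 fell. ABCB9, the lysosomal peptide transporter, was measured at 379, 354 and 376 counts in DU145-TFEB cells and at 250, 213 and 246 in DU145-vector cells, a rise of 0.65 on the log2 scale (SE 0.11, adjusted p = 0.00045 by limma). ABCB10, a mitochondrial inner membrane transporter tied to heme synthesis, had the highest level per kilobase of the subfamily. It fell from 928, 970 and 892 counts to 440, 404 and 454, a log2 fold change of -1.10 (SE 0.09, adjusted p = 6.2e-06). ABCB10 stayed called lower with the trend removed, at -0.81, while ABCB9 became -0.28, called lower. ABCB6, a porphyrin transporter, and ABCB8, a mitochondrial transporter, rose by 0.64 and 0.49. On the scale without the trend ABCB8 was called lower at -0.45 and ABCB6 was not called, at -0.32 (adjusted p = 0.20 by limma). ABCB6 also lost its call without DU145-vector replicate 1 (log2 fold change 0.46, adjusted p = 0.057). Reads of ABCB6 are uncertain, because 54.7% of its exonic bases also belong to the overlapping gene AC068946.2 on the same strand, and those of ABCB9 overlap antisense genes such as AC026362.1 over 20.7% of its exonic bases.

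In the peptide loading list, which serves antigen presentation next to TAP1, an ABC gene outside the naming rule, 3 of 6 genes were analysed and 3 were higher, beside 47.6% of the listed genes. TAPBP, the chaperone tapasin, rose most, by 0.81, TAP1 by 0.58, and B2M, the light chain of class I molecules, by 0.32. B2M was an exception among these genes in having a GC content of 40.6% and a positive change, and it stood at 1.24 on the log2 scale with the trend removed, called higher. TAP1 was then called lower at -0.34, and TAPBP was not called, at -0.11 (adjusted p = 0.31 by limma).

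Among the ABCC genes, exporters of organic anions and conjugates, 4 rose and 2 fell, beside 47.6% higher and 52.4% lower of the listed genes. ABCC1, the multidrug resistance protein that exports glutathione conjugates, had the highest level per kilobase of the subfamily and was measured at 3010, 2930 and 2958 counts against 2391, 2097 and 2206. It rose by 0.41 on the log2 scale (SE 0.07, adjusted p = 0.00045 by limma). ABCC10 rose most, by 0.67, from 756, 791 and 770 counts to 1198, 1408 and 1101. ABCC4, which exports cyclic nucleotides, fell most, from 1209, 1182 and 1097 counts to 489, 357 and 574, a log2 fold change of -1.32 (SE 0.16, adjusted p = 4.1e-05). ABCC1 at 54.9% and ABCC10 at 58.7% lay on the GC-rich side and ABCC4 at 43.2% on the GC-poor side. With the trend removed all 3 were called lower, at -0.35, -0.26 and -0.51, as were 54.3% of the listed genes. ABCC3, a bile salt and conjugate exporter, rose by 0.65, ABCC2, its apical relative with at most 71.2 counts, fell by 1.23, and ABCC6 rose by 0.63 with an SE of 0.20. ABCC2 was also called lower with the trend removed, at -0.67, and ABCC3 and ABCC6 were not called, at -0.10 and -0.31. The reads of ABCC6 are uncertain because it has near-identical pseudogene copies.

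ABCD3 imports fatty acyl groups into peroxisomes. It fell from 710, 819 and 687 counts to 246, 179 and 274, a log2 fold change of -1.68 (SE 0.16, adjusted p = 1.3e-05 by limma), and was 3.17-fold lower. The highest DU145-TFEB library lay far below the lowest DU145-vector library. The GC content of ABCD3 was 37.6%, and with the trend removed it was called lower at -0.56. Of 5 genes for peroxisomal import and oxidation 4 were analysed, and 2 were higher and 2 lower, beside 47.6% and 52.4% of the listed genes. They ran from PEX5, the import receptor, at 0.57 to PEX3, which docks membrane proteins, at -1.07. Neither PEX5, at -0.19, nor PEX3, at -0.14, was called with the trend removed, and 1 of the 4 was higher and 1 lower, beside 14% and 54.3% of the listed genes.

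ABCE1, which splits ribosomes after termination, had the fourth highest level per kilobase of the members and fell from 4251, 5241 and 4090 counts to 1459, 1557 and 1884. The log2 fold change was -1.47 (SE 0.12, adjusted p = 6.4e-06 by limma), just short of the DEG cutoff. ABCF3, a soluble relative linked to translational control, rose from 1041, 1114 and 1203 counts to 1566, 1743 and 1362, by 0.47 (SE 0.10, adjusted p = 0.0018). Of 9 partners at the ribosome 8 were analysed, and 7 were lower and 1 higher, beside 52.4% lower over all listed genes and 5134 of 5969 lower among those with a GC content under 50%. The median of these 8 was -1.18 on the log2 scale. EIF2S1, the alpha subunit of initiation factor 2, was lowest at -1.39, and GCN1, which senses stalled ribosomes, was the higher gene at 0.52. With the trend removed 6 of these 8 were called lower, GCN1 among them at -0.26, and 0 higher, beside 54.3% and 14% of the listed genes, and ABCE1 and ABCF3 lay side by side at -0.44 and -0.40.

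Beta subunits of the sodium pump bring it to the plasma membrane, and the 2 analysed went opposite ways. ATP1B1, the usual beta subunit in epithelia, had the second highest level per kilobase of the members. It fell from 3424, 3355 and 3099 counts to 2030, 1964 and 2212, a log2 fold change of -0.67 (SE 0.08, adjusted p = 3.2e-05 by limma). Per kilobase the means were 1112 in DU145-vector cells and 698 in DU145-TFEB cells, and with the trend removed ATP1B1 was still called lower, at -0.73. ATP1B2, a beta subunit known from neural tissue, was far less abundant and rose from 75.5, 53.6 and 88.0 counts to 141, 109 and 149, by 0.89 (SE 0.22). ATP1B2 was not called with the trend removed, at 0.19 (adjusted p = 0.44 by limma). Of 6 regulators of the pump FXYD6 was analysed, with a log2 fold change of 0.39 that became -0.55, called lower, with the trend removed. Without strand, reads shared with antisense neighbours cannot be told apart, which touches 6.48% of the exonic bases of ATP1B1 (NME7) and 7.49% of those of ABCE1 (ANAPC10).

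Of the calcium pumps ATP2A3 rose and ATP2B1, ATP2B4 and ATP2C1 fell. ATP2A3, a pump of the endoplasmic reticulum, rose from 808, 614 and 730 counts to 1357, 1297 and 1282, by 0.88 on the log2 scale (SE 0.11, adjusted p = 4.7e-05 by limma). Both plasma membrane pumps fell, ATP2B4, the more abundant per kilobase, by 0.34 and ATP2B1 by 1.35, and ATP2B4 was not called with DESeq2, at -0.09. ATP2B1 was measured at 251, 184 and 257 counts against 596, 647 and 512. ATP2C1, the calcium and manganese pump of the Golgi, fell from 1852, 1968 and 1838 counts to 787, 754 and 806, a log2 fold change of -1.27 (SE 0.07, adjusted p = 2.4e-06), with little spread in either group. With the trend removed ATP2C1 was called lower at -0.29, and ATP2A3, ATP2B4 and ATP2B1 were not called, at -0.10, 0.03 and -0.17. Of 14 calcium store channels and sensors 10 were analysed, and 6 were higher and 4 lower, beside 47.6% and 52.4% of the listed genes. ORAI3, a plasma membrane calcium channel, was highest at 0.80, and ITPR2, a release channel of the endoplasmic reticulum, was lowest at -1.67, while its relative ITPR3 rose by 0.66. With the trend removed 0 of the 10 were called higher, 5 were called lower and 5 were not called, shares near the 14% higher and 54.3% lower of the listed genes. ITPR2 and ITPR3 were then both called lower, at -0.64 and -0.24, and ORAI3 was not called, at -0.20 (adjusted p = 0.24 by limma).

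ATP7A, the copper pump of the trans-Golgi network, fell from 129, 122 and 99.0 counts to 40.0, 35.5 and 61.3. The log2 fold change was -1.37 (SE 0.23, adjusted p = 0.00037 by limma), and with the trend removed it was -0.18 (adjusted p = 0.41). Of 8 copper handling genes 4 were analysed, and 4 were higher and 0 lower, beside 47.6% and 52.4% of the listed genes. CCS, the chaperone of superoxide dismutase, rose by 0.62, MT1X, a metallothionein, by 0.57, ATOX1, the chaperone that hands copper to ATP7A, by 0.42, and COX17, which serves cytochrome oxidase, by 0.39. ATOX1 and COX17 had a GC content under 50% and a positive change, and with the trend removed they were called higher at 0.86 and 0.70. On that scale CCS was called lower at -0.43 and MT1X was not called, at -0.26 (adjusted p = 0.050 by limma), so that 2 of the 4 were higher, 1 was lower and 1 was not called, beside 14% higher and 54.3% lower of the listed genes.

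The phospholipid flippases, ATP8 to ATP11, made up the largest P-type group, with 2 higher and 6 lower of 8, beside 47.6% and 52.4% of the listed genes. ATP8B2 had the highest level per kilobase of the group and rose from 3800, 3755 and 3896 counts to 5043, 5042 and 4864, by 0.38 on the log2 scale (SE 0.06, adjusted p = 0.00025 by limma). ATP8B3 rose most, from 778, 659 and 791 counts to 1269, 1096 and 1192, by 0.68, and both became negative with the trend removed, at -0.19 and -0.28. ATP11B, an endosomal flippase, fell from 2111, 2310 and 2080 counts to 704, 405 and 911, a log2 fold change of -1.76 (SE 0.24, adjusted p = 9.6e-05). Its 3 DU145-TFEB libraries spread over a wider range than its DU145-vector libraries, yet each lay below all of them.

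ATP11A, ATP9A, ATP10A and ATP8B1 fell by 0.32, 0.27, 0.91 and 0.97 on the log2 scale. The changes of ATP11A and ATP9A were close to 0 with DESeq2, at -0.08 (adjusted p = 0.48) and -0.03 (adjusted p = 0.77), and were not called there. With the trend removed all 8 flippase genes were called lower by limma, from -0.19 for ATP8B2 to -1.64 for ATP10A, against 54.3% of the listed genes. These calls are against 0, and ATP8B2 and ATP8B3, at -0.28, lay above the median of the listed genes there, -0.31. ATP11A and ATP8B1, both at -0.34, lay near it. ATP10A, which flips phosphatidylcholine and was named after its values were seen, then became the only DEG among the members, while 3.97% of the listed genes were lower DEGs. ATP10A was measured at 608, 561 and 553 counts in DU145-TFEB cells and at 1110, 1007 and 1134 in DU145-vector cells. It was the lower member with the highest GC content, 54.8%. Most flippases need the subunit TMEM30A, which fell from 3226, 3623 and 3069 counts to 1055, 820 and 1268, a log2 fold change of -1.68 (SE 0.14, adjusted p = 7.7e-06). Of 7 flippase subunits and scramblases 3 were analysed, and 2 were lower and 1 higher, beside 52.4% and 47.6% of the listed genes. The lower genes were TMEM30A and the calcium-activated scramblase ANO6, at -1.52, and the higher gene was the caspase-activated XKR8, at 0.52. On the scale without the trend TMEM30A was at -0.70, ANO6 at -0.60 and XKR8 at -0.51, and all 3 were called lower.

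The ATP13 genes went both ways, with 2 higher and 1 lower, beside 47.6% and 52.4% of the listed genes. ATP13A1, which removes misplaced helices from the membrane of the endoplasmic reticulum, rose most of all members, from 513, 575 and 625 counts to 1328, 1382 and 1247. The log2 fold change was 1.21 (SE 0.10, adjusted p = 5.9e-06 by limma), and with the trend removed it was 0.24 (adjusted p = 0.025), though not called with the GC trend alone removed. ATP13A2, the polyamine exporter of the lysosome, had the highest level per kilobase of these genes over both groups. Its counts went from 1297, 1120 and 1361 to 1512, 1571 and 1554, a rise of 0.30 (SE 0.09, adjusted p = 0.0079) that was the smallest of the 21 and became -0.68 with the trend removed. ATP13A3, a polyamine transporter of endosomes and the plasma membrane, fell from 4181, 4852 and 4066 counts to 1093, 695 and 1424. It was 4.08-fold lower, with a log2 fold change of -2.08 (SE 0.21, adjusted p = 1.9e-05), and was called lower at -0.85 with the trend removed.

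**Figure D4:**
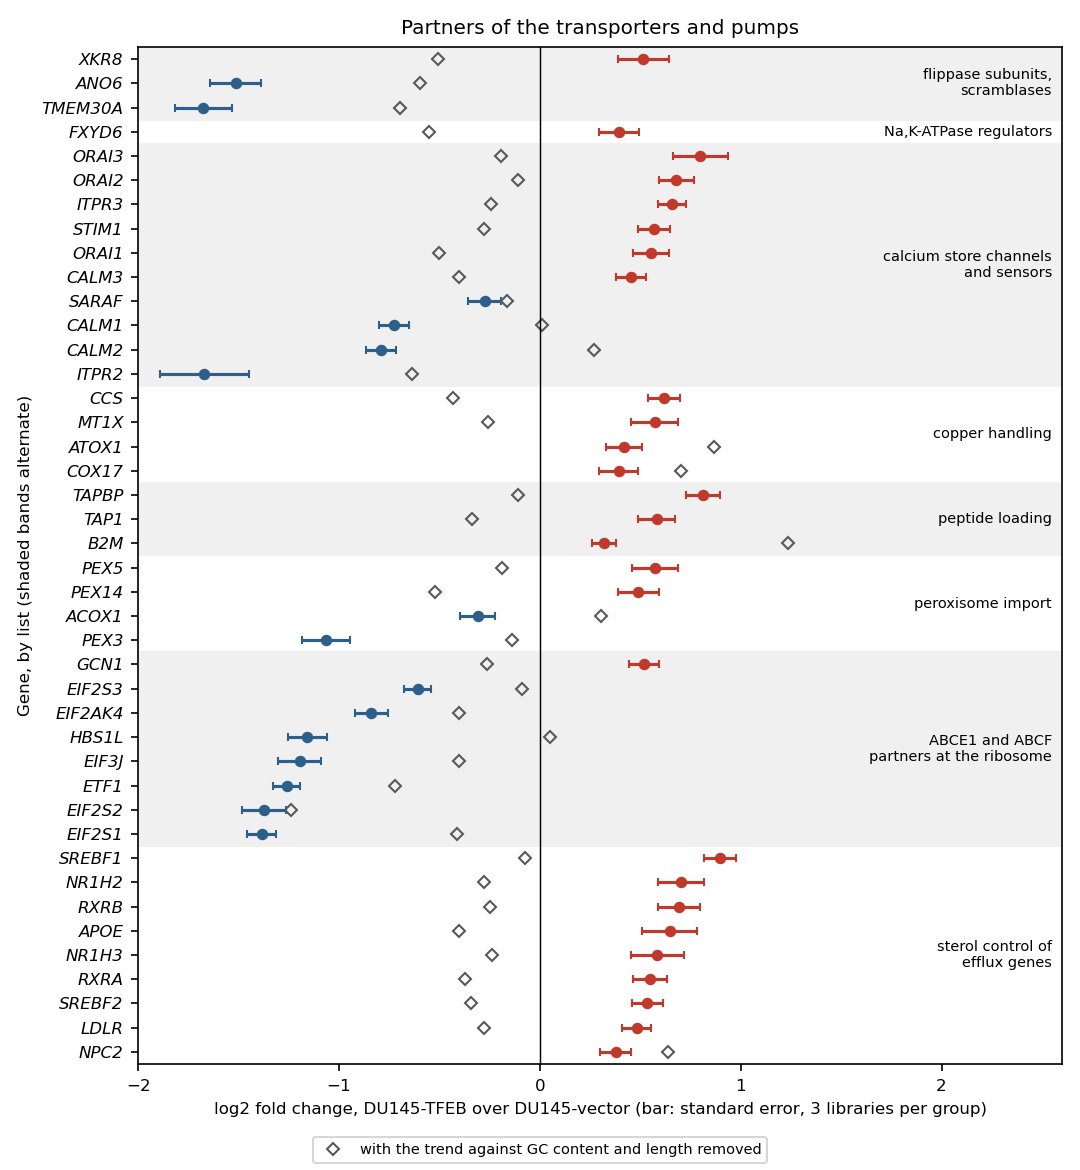
Log2 fold change (x axis, DU145-TFEB over DU145-vector, bars are standard errors from limma with 3 libraries per group) of the analysed genes of 8 partner lists (y axis), with red for higher and blue for lower, and diamonds for the value with the trend against GC content and length removed. All 9 sterol genes lie to the right of 0, 7 of the 8 ribosome partners lie to the left, and of the higher genes ATOX1, COX17, B2M and NPC2 have diamonds to the right of their circles.

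ABCA2 was then set against each other member within a library, as the log2 ratio of the pair, which the scaling of libraries does not change. Of 39 ratios 32 were higher in every DU145-TFEB library than in any DU145-vector library, and 0 were lower in all. The ratio of ABCA2 to any other listed gene did so for 84.4% of 10541 genes, and was lower in 2.78%. The members' share of non-overlapping ratios was thus near that of all listed genes. The count of 32 became 25 with the GC and length trend removed and 27 with the GC trend alone removed. Shares over the listed genes on those scales are not given. The ratios of ABCA2 to ATP13A1, ABCG1, ATP1B2, ABCG4, ABCC10, ABCB6 and ABCC6 overlapped between the groups. For ATP13A1 the log2 ratios were 2.13, 1.97 and 2.13 in DU145-TFEB cells and 2.53, 2.12 and 2.15 in DU145-vector cells, a difference of -0.19 (SE 0.14, exact two-sided permutation p = 0.30). For ABCG1 the difference was -0.09 (SE 0.13, exact permutation p = 0.70), for ATP1B2 it was 0.13 (SE 0.20) and for ABCG4 0.14 (SE 0.15). ABCA2 and these 4 genes did not differ beyond the spread between libraries, which does not show that they changed alike.

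The ratios of ABCA2 to its own subfamily rose by 0.30 for ABCA7 (SE 0.05), by 0.31 for ABCA3 (SE 0.04) and by 2.17 for ABCA5 (SE 0.40). The ratio to ATP13A3 rose from -0.49, -0.96 and -0.55 to 2.41, 2.96 and 1.94, or by 3.10 (SE 0.33). These ratios hold the GC trend, as GC content was 63.7% for ABCA2, 33.1% for ABCA5 and 37.2% for ATP13A3. With the GC and length trend removed the log2 fold changes of these genes lay closer together, at 0.08, -0.11 and -0.85. The smallest two-sided p of the exact permutation test with 3 against 3 libraries is 0.1, which becomes 0.12 after adjustment over the 39 pairs, so no single pair could pass 0.05.

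**Figure D5:**
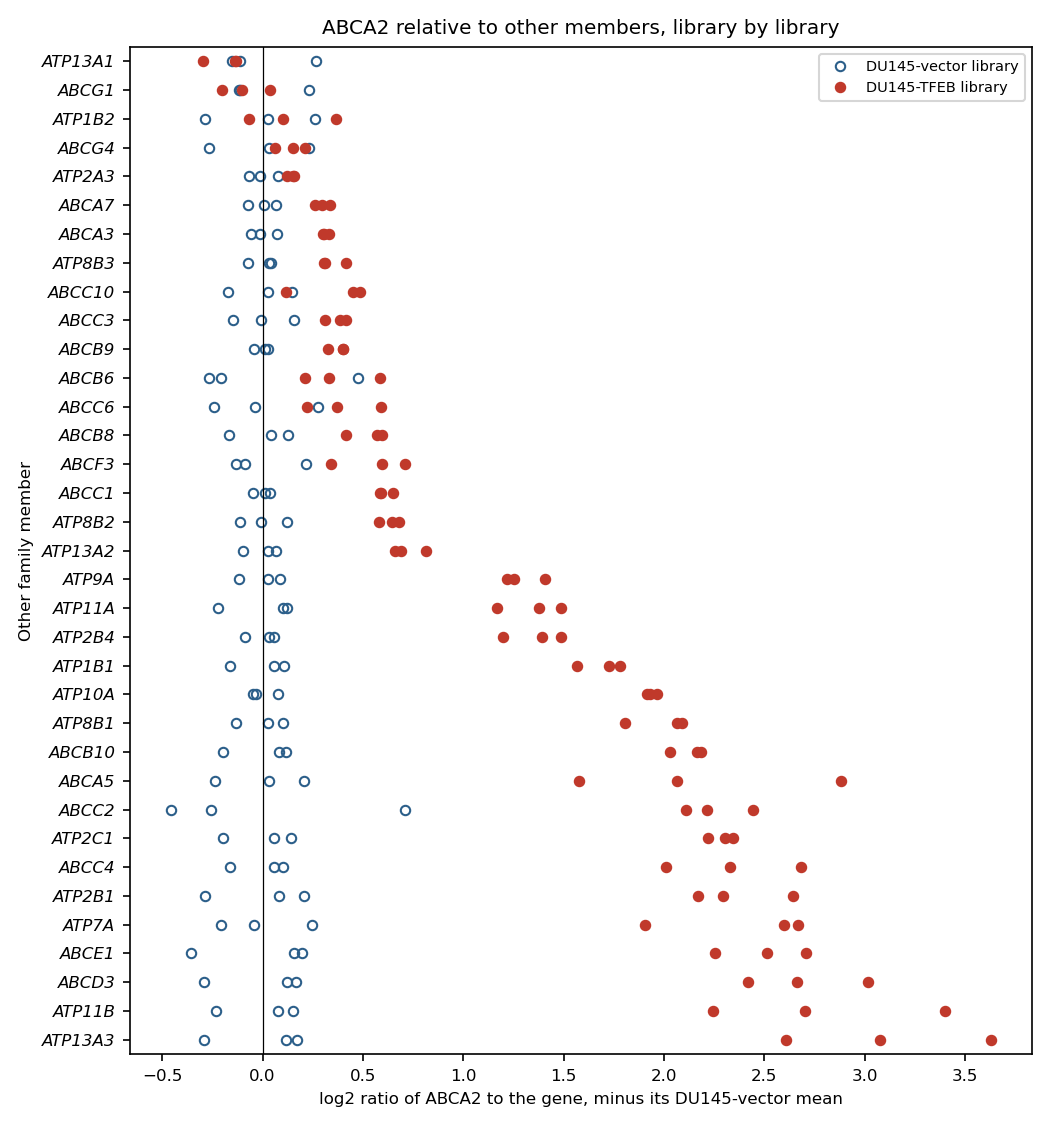
Log2 ratio of ABCA2 to 35 of the 39 other members (y axis), shown as the distance from the mean of the DU145-vector libraries (x axis), for 3 DU145-TFEB libraries (filled) and 3 DU145-vector libraries (open). The ratios to ATP13A1, ABCG1, ATP1B2 and ABCG4 at the top overlap between groups, and those at the bottom, to ATP13A3 and ATP11B, lie furthest apart.

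Single replicates were often the lowest or highest of their group, in lower and higher members alike. DU145-TFEB replicate 2 was the lowest of its group in 16 of the 19 lower members and DU145-TFEB replicate 3 the highest in 16, and DU145-vector replicate 3 was the lowest in 14 of the 19. Among the 21 higher members DU145-TFEB replicate 1 was the highest of its group in 13, DU145-vector replicate 2 the lowest in 14 and DU145-vector replicate 3 the highest in 13. Without DU145-TFEB replicate 2, ABCD3 and ATP11B were no longer DEGs and ATP13A3 was, and 2 lower DEGs were left. Without DU145-TFEB replicate 3 there were 6, with ABCE1 and ATP7A added, and without DU145-vector replicate 1 there were 6, with ABCC2 and ABCE1 added. The directions of all 40 members were kept whichever library was left out.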

How the data were processed

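DU145-TFEB and DU145-vector libraries were assigned to groups by their titles. Per the study's methods, libraries were made with the NEBNext Ultra kit and compared with DESeq2, and the submitters' processing notes list CASAVA 1.8, HISAT2 2.1.0 and edgeR. The counting program, the annotation and strandedness are not given in the sources used here, and positions equal those of GENCODE 29 (GRCh38) for 10541 of 10542 genes. The authors deposited a normalized signal, reads divided by 1 size factor per library, and the log2 fold changes and p-values of their own comparison, which were not used beyond the highest adjusted p-value.

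The design named limma for normalized values, and limma 3.58.1 with a trend (R 4.3.3) was run on log2(normalized count + 1) for genes with a mean of at least 1. Genes tested were adjusted together by the Benjamini-Hochberg method. Reads were recovered, with 100% of values whole within 1e-06, for DESeq2 1.42.0 and edgeR 4.0.16. GC content was taken from the longest transcript of GENCODE 29 for 10537 genes, and its trend and that of length were removed by loess (span 0.5). Promoter windows came from RefSeq (GRCh38.p14). Scripts were tested on simulated data.

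Members and partner lists were chosen with earlier results of these data known. Named genes were TFEB, ABCA2, every member DEG, in each subfamily the gene with the highest level per kilobase and those with the highest and lowest log2 fold changes, and the highest and lowest gene of each partner list. Some genes that this rule names are not reported here. ATP10A and other genes outside this rule were named after their values were seen.

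The check of pairing found that replicate numbers are shared between the groups but give no pairing, since deviations of libraries with the same number correlated at -0.02, -0.25 and -0.14. The chi-square between libraries of the same group was 2.97 to 27.2 per gene, above sampling noise, and each was counted as 1 replicate. Alternatives covered the pseudocount, filters, scaling, other tools, the replicate block, trend removal, each library left out and other cutoffs.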

Additional observations from a re-analysis of the deposited data

How the results depend on the processing

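With the GC and length trend removed 18 members changed sign. On that scale 14 of the 19 lower members were called lower, as were 11 of the 21 higher members and 54.3% of the listed genes. Calls there are against 0, while the median of the listed genes was -0.31. The lowest member, ABCC2, had 22 reads in a library. ABCC2 and ABCA5, the latter with as few as 41 reads, had the largest SEs of the members, 0.28 and 0.29. The median of all listed genes was -0.36, and moved to -0.11 with DESeq2, -0.12 with limma on DESeq2 size factors, -0.03 with quantile normalization and -0.28 with edgeR. No member changed sign under these. ATP11A, ATP2B4 and ATP9A were not called with DESeq2, at -0.080, -0.094 and -0.032, or with its size factors, nor was ATP9A with quantile normalization. DESeq2 left 2 lower DEGs, among them ATP13A3. ABCA2 ranged from 0.97 with library totals to 1.26 with DESeq2 size factors, and was the third highest member under each of these scalings but quantile normalization, where it was the seventh.

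The replicate block gave 21 higher and 19 lower members, 0 higher and 4 lower DEGs and 1.02 for ABCA2, and changed no call, although the numbers do not pair the libraries. With each library left out, higher members numbered 20 to 21, since ABCB6 was at 0.46 (adjusted p = 0.057 by limma) without DU145-vector replicate 1. Lower DEGs numbered 2 to 6, and ABCA2 lay between 0.95 and 1.08. An absolute log2 cutoff of 1 gave 3 higher and 12 lower DEGs, and one of 0.58 gave 14 higher and 16 lower. Shares of the listed genes at these cutoffs are not given, so the counts do not set the family apart. At 1.5 the listed genes leaned lower too, with 2.54% higher and 16.5% lower DEGs.

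With the GC and length trend removed there were 2 higher members, 1 lower DEG (ATP10A) and a log2 fold change of 0.079 for ABCA2. With the GC trend alone removed, an alternative chosen after seeing the data, there were 0 higher members, 1 lower DEG, again ATP10A, and -0.012 (adjusted p = 0.89 by limma) for ABCA2. That value of ABCA2 lay 0.31 above the median of the listed genes there, -0.32. Signs turned for the following genes, with the value without the GC and length trend first and without the GC trend alone second. Signs are against 0, while the medians of the listed genes were -0.31 and -0.32, so a negative value can lie above them. They were -0.26 and -0.29 for ABCA3, -0.23 and -0.32 for ABCA7, -0.32 and -0.34 for ABCB6, -0.45 and -0.50 for ABCB8, and -0.28 and -0.38 for ABCB9. They were -0.35 and -0.42 for ABCC1, -0.10 and -0.23 for ABCC3, -0.31 and -0.34 for ABCC6, and -0.26 and -0.30 for ABCC10. They were -0.40 and -0.43 for ABCF3, -0.090 and -0.11 for ABCG4, -0.68 and -0.74 for ATP13A2, and -0.10 and -0.15 for ATP2A3. They were -0.19 and -0.29 for ATP8B2 and -0.28 and -0.30 for ATP8B3. ATP2B4 turned to 0.028 without the GC and length trend. The cause was not tested.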
